A study of Mus musculus with 2 samples.

Results

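The fibroblast growth factor (FGF) genes were examined in total RNA of the newborn stomach. The group holds 35 genes: every protein-coding gene named Fgf or Fgfr with a number, the receptor-like gene Fgfrl1, the co-receptor gene Klb, the adaptor gene Frs2, and 6 genes switched on by FGF signalling (Spry1, Spry2, Spry4, Etv4, Etv5 and Dusp6). They were found by symbol among 21474 protein-coding genes in a table of 43346 genes with an Ensembl ID. The stomachs came from 2 pups of the mouse strain B6NCrl, taken on day 0 after birth from the same dam, with sex not collected and no treatment or genetic change named. Each pup gave 1 whole stomach and 1 library, so the values describe 1 group, and no comparison between conditions exists. Pups are named by their replicate numbers, and the ratio between them is that of pup 2 over pup 1.

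FGF ligands are secreted proteins that bind heparan sulfate and activate receptor tyrosine kinases. The receptors signal through the adaptor Frs2 to the Ras and MAP kinase relay, which raises the Etv transcription factors and, as feedback, the Sprouty proteins and the phosphatase Dusp6. In the receptor genes Fgfr1, Fgfr2 and Fgfr3, a choice between 2 exons sets the second part of the third immunoglobulin domain and with it the ligands that bind. The IIIb form is typical of epithelium and is bound by ligands such as Fgf7 and Fgf10, while the IIIc form is typical of mesenchyme. In the embryonic mouse stomach, Fgf10 from mesenchyme acting on Fgfr2 in epithelium is known to shape growth and gland development.

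Sequencing depth was 49983574 expected counts for pup 2 and 51524479 for pup 1. Where a gene had a count of 0, up to 3 counts remain possible, which as a CPM, the count over the library's sum, is 0.0600 for pup 2 and 0.0582 for pup 1, for counting error only. Levels are given in TPM, the transcript share after scaling for gene length, with the 95% interval the authors deposited where it matters. Markers of the labelled tissue were present: all 8 genes of the gland epithelium list, all 8 of the squamous (forestomach) list and all 8 of the mesenchyme and smooth muscle list were detected. The first was led by Tff1 (13022 TPM in pup 2 and 12874 TPM in pup 1), Gkn1 and Krt8, the second by Krtdap (11163 TPM in pup 2 and 10904 TPM in pup 1), Krt4 and Krt13, and the third by Acta2 (2921 TPM in pup 2 and 3358 TPM in pup 1), Col3a1 and Col1a1. All 6 genes of each of the endothelium, glia and immune lists were detected too. So were 5 of 8 pancreas markers and 5 of 7 skeletal muscle markers. Detection alone therefore does not tell tissues apart. Whole tissue was sequenced, so fewer cells of a type and less RNA per cell cannot be told apart.

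Of the 35 genes, 20 (57.1%) were detected, meaning that TPM reached 1 in each pup. Over all protein-coding genes the share was 61.2%, close to that of the FGF genes. All 5 receptor genes, Frs2 and all 6 target and feedback genes were detected, against 6 of 18 secreted ligands, 2 of 4 intracellular FGF genes and not the co-receptor Klb. The median over all 35 was 1.16 TPM in pup 2 and 1.25 TPM in pup 1, below the 3.64 TPM in pup 2 and 3.49 TPM in pup 1 of all protein-coding genes. Summed by role, the receptors reached 107 TPM in pup 2 and 96.7 TPM in pup 1, the targets and feedback genes 76.8 TPM in pup 2 and 75.1 TPM in pup 1, and the secreted ligands 27.6 TPM in pup 2 and 29.3 TPM in pup 1.

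**Figure D1:**
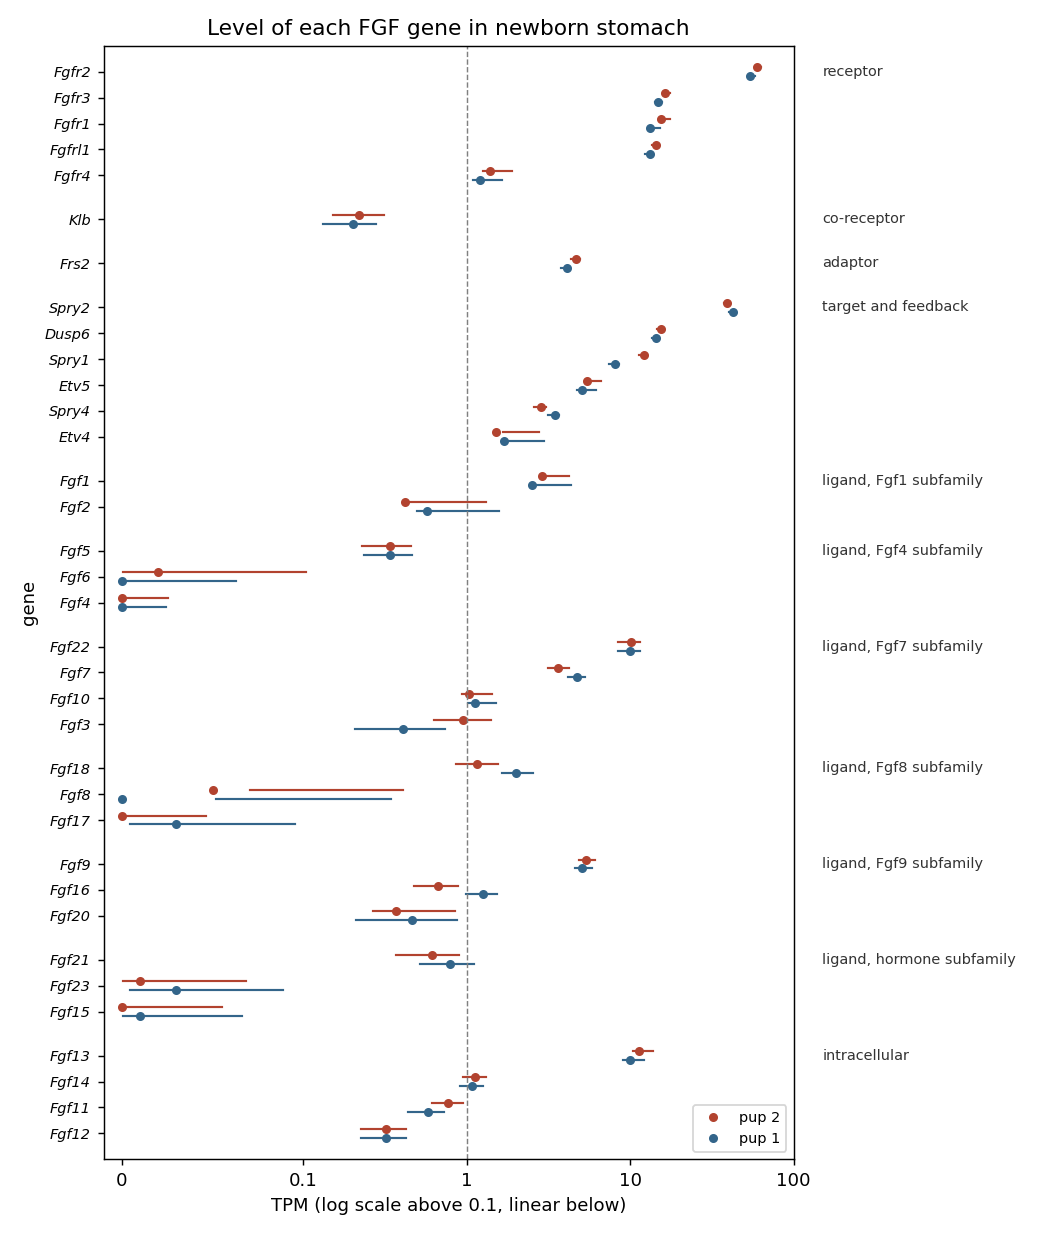
Level of each of the 35 FGF genes in TPM (log axis above 0.1, linear below), grouped by role, with pup 2 drawn above pup 1. Points are the deposited TPM values, lines the deposited 95% intervals, and the dashed line the detection limit of 1 TPM. The receptors and feedback genes lie mostly above the ligands, and a few points lie left of their own interval.

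Among the receptors, Fgfr2 was the highest, at 59.6 TPM in pup 2 and 54.3 TPM in pup 1 (mean 57.0 ± 3.75, SD, n = 2). It accounted for 64.3% of the summed TPM of Fgfr1 to Fgfr4 in pup 2 and for 65.1% in pup 1, and stood above 83.2% of detected protein-coding genes. Fgfr3 followed at 16.3 TPM in pup 2 and 14.7 TPM in pup 1. Fgfr1 had 15.4 TPM in pup 2 and 13.2 TPM in pup 1, and the ranges of Fgfr3 and Fgfr1 over the pups overlapped. Fgfrl1, a receptor relative without the kinase domain, had 14.5 TPM in pup 2 and 13.2 TPM in pup 1 and overlapped with Fgfr1. Fgfr4, best known in mouse as the liver receptor for the hormone-like Fgf15, was the lowest, at 1.38 TPM in pup 2 and 1.21 TPM in pup 1. Klb, which lets Fgf15 and Fgf21 engage receptors, was under the detection limit at 0.22 TPM in pup 2 and 0.20 TPM in pup 1, on 30 and 28 counts.

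Part of the Fgfr2 level rests on an unusual transcript model. The transcript with the highest TPM was Fgfr2-217, at 23.2 TPM in pup 2 and 21.0 TPM in pup 1, or 38.9% of the gene in pup 2 and 38.6% in pup 1. Its first 2 exons, chr7:133123141-133123350 and chr7:133081757-133081860 on the minus strand of mm10, are exons of Ctbp2, a transcriptional co-repressor gene, and lie 2.82 Mb upstream of every other Fgfr2 transcript. Its last 5 exons, 2111 of its 2425 bases, are the 3′ end of Fgfr2, downstream of the exons for the third immunoglobulin domain. Ctbp2 itself stood at 47.5 TPM in pup 2 and 41.6 TPM in pup 1, and the 314 bases of the first exons are shared with it, so that reads there are divided between the genes by estimate. All bases of the last 5 exons also lie in exons of other Fgfr2 transcripts, so reads there are likewise divided by estimate. Without this transcript Fgfr2 came to 36.4 TPM in pup 2 and 33.3 TPM in pup 1, still above every other receptor but below Spry2. Values without Fgfr2-217 can leave out reads of the other Fgfr2 transcripts and are not a corrected level. How many reads cross from the Ctbp2 exons into Fgfr2 was not tested.

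The alternative exons of the receptors were read from the annotated transcripts. The IIIb exons of Fgfr2 and Fgfr3, the receptors in which IIIb transcripts had the highest levels, are shown. Each is written 5′ to 3′ on the coding strand of mm10 from GENCODE M21 transcripts, and capitals mark bases without an identical partner when the exons are aligned with each other.
Fgfr2 IIIb, chr7:130199758-130199905, minus strand: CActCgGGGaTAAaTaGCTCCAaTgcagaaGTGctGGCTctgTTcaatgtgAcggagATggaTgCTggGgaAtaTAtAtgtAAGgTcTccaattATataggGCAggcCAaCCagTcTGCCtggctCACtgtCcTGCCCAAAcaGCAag
Fgfr3 IIIb, chr5:33731281-33731431, plus strand: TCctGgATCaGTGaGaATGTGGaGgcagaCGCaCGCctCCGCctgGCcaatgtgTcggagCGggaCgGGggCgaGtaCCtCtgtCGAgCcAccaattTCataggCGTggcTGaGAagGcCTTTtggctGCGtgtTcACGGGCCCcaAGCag
They are 148 bases (Fgfr2) and 151 bases (Fgfr3) long and were 51.0% identical over their alignment. The IIIb exons of Fgfr1 and Fgfr2 were more alike, at 73.5%.

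Transcripts with the IIIb exon held most of Fgfr3, at 82.3% of its TPM in pup 2 and 87.0% in pup 1. IIIc transcripts held 13.5% of Fgfr3 in pup 2 and 9.17% in pup 1. For Fgfr1 the order was the other way round, with IIIc at 86.1% in pup 2 and 93.5% in pup 1 and IIIb at 5.14% in pup 2 and 3.36% in pup 1. In both genes the pups gave the same main form, and the gap between forms was far wider than the difference between pups. The main Fgfr3 transcript, Fgfr3-211 (IIIb), had 8.07 TPM in pup 2 and 8.18 TPM in pup 1. The main Fgfr1 transcript, Fgfr1-202 (IIIc), had 5.31 TPM in pup 2 and 4.39 TPM in pup 1.

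In Fgfr2 the forms were close to each other. IIIb transcripts came to 12.5 TPM in pup 2 and 11.5 TPM in pup 1, and IIIc transcripts to 12.1 TPM in pup 2 and 10.1 TPM in pup 1. As shares of the gene, IIIb held 21.0% in pup 2 and 21.2% in pup 1, and IIIc 20.3% in pup 2 and 18.6% in pup 1. Of the TPM in transcripts with either exon, IIIb made up 50.9% in pup 2 and 53.2% in pup 1 (mean 52.1% ± 1.61, SD, n = 2). By expected counts, which are not scaled for length, it made up 42.1% over the pups, so which form leads depended on the measure. The main IIIb transcript, Fgfr2-211, had 7.41 TPM in pup 2 and 7.25 TPM in pup 1, against 9.36 TPM in pup 2 and 8.83 TPM in pup 1 for the main IIIc transcript, Fgfr2-207. Their deposited intervals overlapped in each pup. The next IIIb transcript, Fgfr2-208, had 4.86 TPM in pup 2 with a deposited interval of 1.45 to 5.07. The next IIIc transcript, Fgfr2-215, had 2.72 TPM in pup 2 with an interval of 0.32 to 3.73. The SD between pups does not cover this uncertainty of the division among transcripts.

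The forms were quantified on models of different length. The deposited tables gave Fgfr2-211 a length of 3053 bases, which the later M21 annotation extends to 4311, while Fgfr2-207 was 4223 bases in both. Fgfr2-208 (IIIb) was 2296 bases and Fgfr2-215 (IIIc) 3323 bases in both annotations. The effect of the shorter models on the shares was not tested. For Fgfr3, the leading IIIb transcripts (4020 and 4225 bases) and the leading IIIc transcript (4150 bases) were of like length and the same in both annotations. Besides Fgfr2-217, a transcript classed as a target of nonsense-mediated decay, Fgfr2-226, spans the region with neither exon and held 8.61% of Fgfr2 in pup 2 and 8.62% in pup 1. Transcripts that do not reach across the region held 11.2% of Fgfr2 in pup 2 and 13.0% in pup 1.

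**Figure D2:**
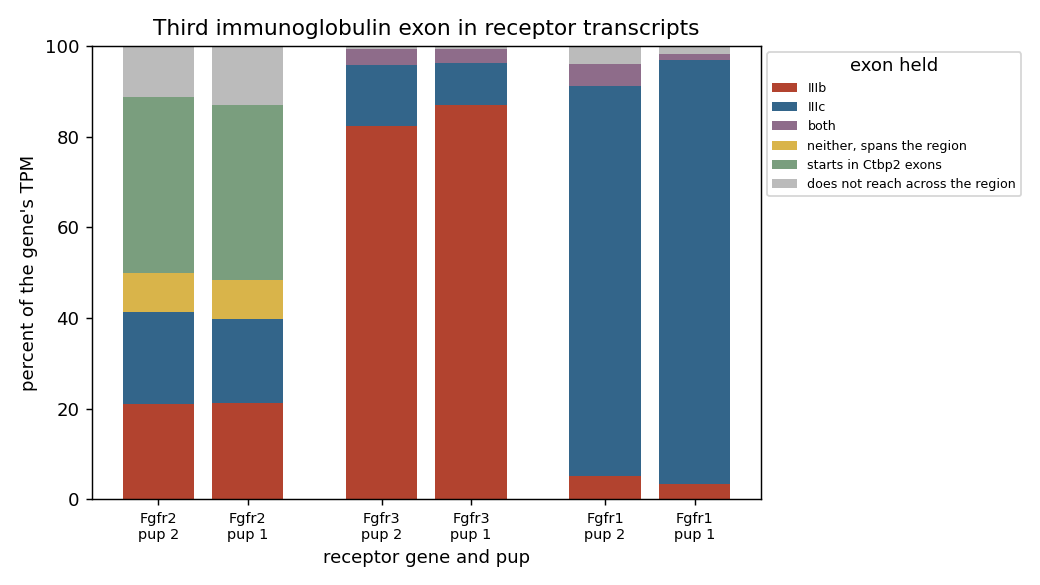
Percent of each receptor gene's TPM in transcripts that hold the IIIb exon, the IIIc exon, both or neither, per pup. Transcripts that start in Ctbp2 exons and those that do not reach across the region are classes of their own. Fgfr3 is mostly IIIb (82.3% in pup 2 and 87.0% in pup 1), Fgfr1 mostly IIIc (86.1% in pup 2 and 93.5% in pup 1), and the largest part of Fgfr2 is the transcript that starts in Ctbp2 exons.

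**Figure D3:**
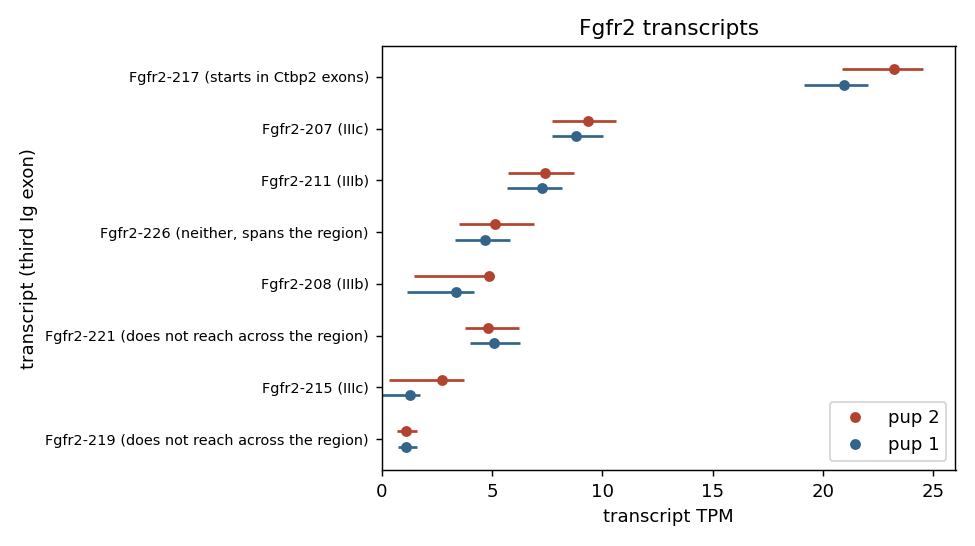
Fgfr2 transcripts that reached 1 TPM in a pup, pup 2 above pup 1, with the deposited 95% intervals as lines. Fgfr2-217 lies above the others at 23.2 TPM in pup 2 and 21.0 TPM in pup 1, and the intervals of the leading IIIb and IIIc transcripts overlap.

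Genes known to favour one form or the other were all present. Of 7 regulators of splicing on the list, 7 were detected, where 61.2% of all protein-coding genes were. None differed between pups by the rule given below. The highest were Hnrnpm at 93.4 TPM in pup 2 and 91.6 TPM in pup 1, Ptbp1 at 88.8 TPM in pup 2 and 85.6 TPM in pup 1, and Esrp1 at 42.9 TPM in pup 2 and 40.8 TPM in pup 1. Esrp1 is an epithelial splicing factor that promotes the IIIb exon of Fgfr2, and Ptbp1 represses it.

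Of the secreted ligands, those of the Fgf7 subfamily, known as ligands of the IIIb form of Fgfr2, held the largest summed level. They came to 15.7 TPM in pup 2 and 16.2 TPM in pup 1, or 56.9% of the ligand TPM in pup 2 and 55.3% in pup 1. Most of this was Fgf22, at 10.1 TPM in pup 2 and 9.98 TPM in pup 1. Without it the subfamily came to 5.60 TPM in pup 2 and 6.23 TPM in pup 1, below the Fgf9 subfamily at 6.40 TPM in pup 2 and 6.80 TPM in pup 1. Fgf22 rested on 156 counts in pup 2 and 161 in pup 1 over a deposited length of 489 bases, against 664 bases in M21. In M21, Fgf22 shares 82 exon bases, 3.65% of its M21 exon bases, with Rnf126 on the other strand. Rnf126 stood at 54.9 TPM in pup 2 and 48.5 TPM in pup 1. Whether the shared bases lie in the deposited Fgf22 model was not tested. Whether reads kept their strand is not stated in the labels used, so reads of the overlap cannot be told apart.

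Fgf7, made by mesenchyme and acting on epithelium, had 3.62 TPM in pup 2 and 4.70 TPM in pup 1, on 298 counts in pup 2 and 442 in pup 1. Its share of reads in pup 2 was 0.695 times that in pup 1 (exact binomial 95% interval 0.598 to 0.807), while its deposited TPM intervals overlapped. Such binomial intervals cover counting error only. Those of other members, Fgfr2 and Spry2 among them, also exclude 1, while those of Fgf22 and Dusp6, for example, hold it. Fgf10, the ligand best known for stomach development in mouse, was just above the detection limit at 1.03 TPM in pup 2 and 1.12 TPM in pup 1. Fgf3 fell short of the limit, at 0.95 TPM in pup 2 and 0.41 TPM in pup 1. Its counts were 49 in pup 2 and 17 in pup 1, the widest difference in reads among members above the floor (ratio 2.97, exact binomial 95% interval 1.68 to 5.50), with TPM intervals that overlapped.

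Fgf9, known in mouse to act on gut mesenchyme, had 5.36 TPM in pup 2 and 5.09 TPM in pup 1, and its subfamily held 23.2% of ligand TPM in each pup. Fgf16 of the same subfamily had 0.67 TPM in pup 2 and 1.25 TPM in pup 1, and Fgf20 was below 0.5 TPM in each. Fgf1, which can bind all receptor forms, had 2.87 TPM in pup 2 and 2.52 TPM in pup 1. Its pup 1 value lies under its own deposited interval (2.71 to 4.32), and the posterior mean was 3.51 TPM in pup 2 and 3.45 TPM in pup 1. Fgf18, a ligand of the Fgf8 subfamily, had 1.16 TPM in pup 2 and 2.01 TPM in pup 1, on 44 counts in pup 2 and 82 in pup 1. Fgf16 and Fgf18 were lower in pup 2 with deposited intervals that did not overlap, on mean counts under 100.

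The other secreted ligands were low or absent at this depth and on the deposited transcript models. Fgf2, Fgf5 and the metabolic hormone Fgf21 lay between 0.34 and 0.79 TPM. The Fgf2 value of pup 2, 0.42 TPM, lies under its own deposited interval (0.45 to 1.31), and its posterior mean was 0.86 TPM in pup 2 and 1.01 TPM in pup 1. In M21, Fgf2 shares 640 exon bases with Nudt6 on the other strand, 9.44% of its M21 exon bases, and Fgf20 shares 202 with Micu3. Their values are uncertain without strand information, and whether the shared bases lie in the deposited models was not tested. The deposited Fgf2 models were short, the longest 1240 bases. Fgf2 exons outside these models could give no counts, and their effect on its level was not tested. Fgf4, Fgf6, Fgf8, Fgf15, Fgf17 and Fgf23 had no more than 3 counts in either pup, the floor used here, and Fgf4 had 0 in both. Fgf15 is the bile acid feedback hormone of the mouse ileum. It had 0 counts in pup 2 and 1 in pup 1, beside the ileal transporter gene Slc10a2 at 0.02 TPM in pup 2 and 0 TPM in pup 1. Of the 8 intestine markers, Slc10a2, Cdx1 and Cdx2 were under 1 TPM and 5 were detected: Fabp2 (15.6 TPM in pup 2 and 18.5 TPM in pup 1), Vil1 (9.54 TPM in pup 2 and 11.0 TPM in pup 1), Alpi (4.89 TPM in pup 2 and 9.83 TPM in pup 1), the ileal bile acid binder Fabp6 (6.56 TPM in pup 2 and 5.09 TPM in pup 1) and Lct.

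**Figure D4:**
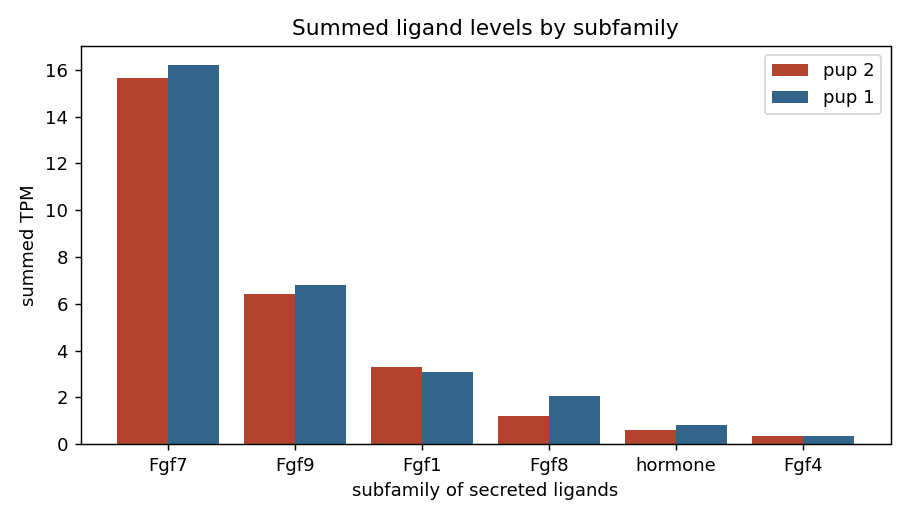
Summed TPM of the 18 secreted FGF ligands by subfamily, pup 2 left of pup 1. The Fgf7 subfamily is the highest with Fgf22 included (15.7 TPM in pup 2 and 16.2 TPM in pup 1), and the Fgf4 and hormone subfamilies are below 1 TPM.

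The intracellular FGF genes encode proteins that are not secreted and bind voltage-gated sodium channels in excitable cells. Fgf13 was the highest of them, at 11.3 TPM in pup 2 and 9.97 TPM in pup 1, a range that takes in that of Fgf22 and lies above those of the other secreted ligands. Fgf14 had 1.13 TPM in pup 2 and 1.08 TPM in pup 1, and Fgf11 and Fgf12 were below 1 TPM. Fgf13 TPM was divided over 6 transcripts, the main one, Fgf13-202, with 29.2% in pup 2 and 37.2% in pup 1. Of the 8 neuron markers, 7 were detected, led by Uchl1, Stmn2 and Tubb3, with a summed level of 144 TPM in pup 2 and 139 TPM in pup 1. The skeletal muscle list, with 5 of 7 genes detected, was led by Des, Ckm (30.9 TPM in pup 2 and 29.3 TPM in pup 1) and Acta1. Des is not particular to skeletal muscle. It was lower in pup 2 with deposited intervals that did not overlap, as were Acta2 and Myh11 of the smooth muscle list. By the same measure, 3 genes of the skeletal muscle list were higher in pup 2.

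The adaptor gene Frs2 had 4.68 TPM in pup 2 and 4.08 TPM in pup 1. Below it, all 18 genes of the relay list were detected, with a median of 45.4 TPM in pup 2 and 40.6 TPM in pup 1. Over all protein-coding genes 61.2% were detected, and the detected ones had a median of 13.2 TPM in pup 2 and 12.9 TPM in pup 1. The highest were the kinase gene Map2k2 (121 TPM in pup 2 and 114 TPM in pup 1), the GTPase gene Hras (101 TPM in pup 2 and 107 TPM in pup 1) and the kinase gene Mapk3 (97.0 TPM in pup 2 and 95.1 TPM in pup 1).

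Among targets and feedback genes, Spry2, a Sprouty inhibitor of receptor signalling, was the highest and the second of all FGF genes. It had 39.3 TPM in pup 2 and 42.3 TPM in pup 1 (mean 40.8 ± 2.14, SD, n = 2). Dusp6, the phosphatase that inactivates ERK kinases, had 15.5 TPM in pup 2 and 14.5 TPM in pup 1. Spry1 had 12.2 TPM in pup 2 and 8.05 TPM in pup 1, and Spry4 had 2.85 TPM in pup 2 and 3.45 TPM in pup 1. The transcription factor gene Etv5, a readout of FGF signalling, had 5.44 TPM in pup 2 and 5.09 TPM in pup 1. Its relative Etv4 had 1.51 TPM in pup 2 and 1.68 TPM in pup 1, below its own deposited interval in each pup, and the posterior mean was 2.19 TPM in pup 2 and 2.39 TPM in pup 1. These genes are also raised by other receptors that use the same relay.

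Further feedback inhibitors from a list of 13, of which 12 were found, were detected in 10 cases. The share over all protein-coding genes, 61.2%, stands beside this count and those of the lists that follow. Dusp14 led with 112 TPM in pup 2 and 101 TPM in pup 1, followed by Errfi1 at 27.5 TPM in pup 2 and 26.2 TPM in pup 1. The phosphatase Dusp5 came next at 16.1 TPM in pup 2 and 12.2 TPM in pup 1. Of the 16 co-receptors and extracellular carriers, 13 were detected. The carrier Fgfbp1, which releases FGFs from the matrix, had 298 TPM in pup 2 and 268 TPM in pup 1, the glypican Gpc3 217 TPM in pup 2 and 204 TPM in pup 1, and the syndecan Sdc1 166 TPM in pup 2 and 150 TPM in pup 1. Kl, which encodes the co-receptor for Fgf23, was not detected, as was the case for Klb. Of the 13 genes that build or trim heparan sulfate, 12 were detected, led by Sulf2 (42.4 TPM in pup 2 and 45.6 TPM in pup 1), Ext2 (43.7 TPM in pup 2 and 43.9 TPM in pup 1) and Sulf1 (13.9 TPM in pup 2 and 16.5 TPM in pup 1).

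Few FGF genes differed between the pups. A gene was counted as different where the deposited intervals did not overlap, the fold difference in TPM was 2 or more and the mean count reached 100. None of the 19 FGF genes with that count passed, where 0.423% of 13951 genes did. No p-value is given, since each pup has 1 library and the design holds 1 group. At 1.5-fold, which 1.63% of genes passed, 1 did: Spry1, higher in pup 2 with a log2 ratio of 0.54 and a read share 1.49 times that of pup 1 (exact binomial 95% interval 1.36 to 1.63). Without a threshold on fold, the intervals were apart for 5 of the 19, beside 21.2% of all genes. Fgfr3, Spry1 and Frs2 were higher in pup 2, which 12.9% of all genes were, and Spry2 and Spry4 were lower in pup 2, which 8.33% were. These shares rest on few genes and lie near those of all genes. In M21, Spry1 has 710 exon bases (24.4%) in common with Gm42922 on the other strand. Fgfr3 likewise has 998 (13.9%) in common with G630022F23Rik. Neither overlapping gene was quantified, so the Spry1 and Fgfr3 values are uncertain without strand information.

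Of the 20 detected genes, 17 (85.0%) lay within 1.25-fold, where 89.9% of detected protein-coding genes did. The exceptions were Spry1, Fgf7 and Fgf18, and the widest was Fgf18 at 1.73-fold, on a mean count under 100. The median log2 ratio of the detected genes was 0.09, with 14 above 0 and 6 below, where the median of 13339 protein-coding genes was 0.03. Among the other FGF pathway lists, with 7 to 18 genes each that reached the count limit, no gene passed the 2-fold rule. Since 0.423% of all genes passed it, lists of this size may hold none. The 8 liver markers summed to 197 TPM in pup 2 and 129 TPM in pup 1, with Ttr, Ahsg and Afp the highest, Afp and Fgb called at 2-fold, 7 detected and Cyp7a1 under 1 TPM. The intestine markers summed to 38.0 TPM in pup 2 and 47.0 TPM in pup 1, with Alpi and Lct called. Fabp2 and Vil1 were also lower in pup 2 with intervals apart. The mesenchyme and smooth muscle markers summed to 5327 TPM in pup 2 and 5817 TPM in pup 1. Of these 8 genes, 4 (Acta2, Col1a1, Vim and Myh11) were lower in pup 2 and 2 (Col3a1 and Barx1) higher, with intervals apart. The part of these shifts in the ratios of FGF genes, Fgf7 among them, was not tested.

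**Figure D5:**
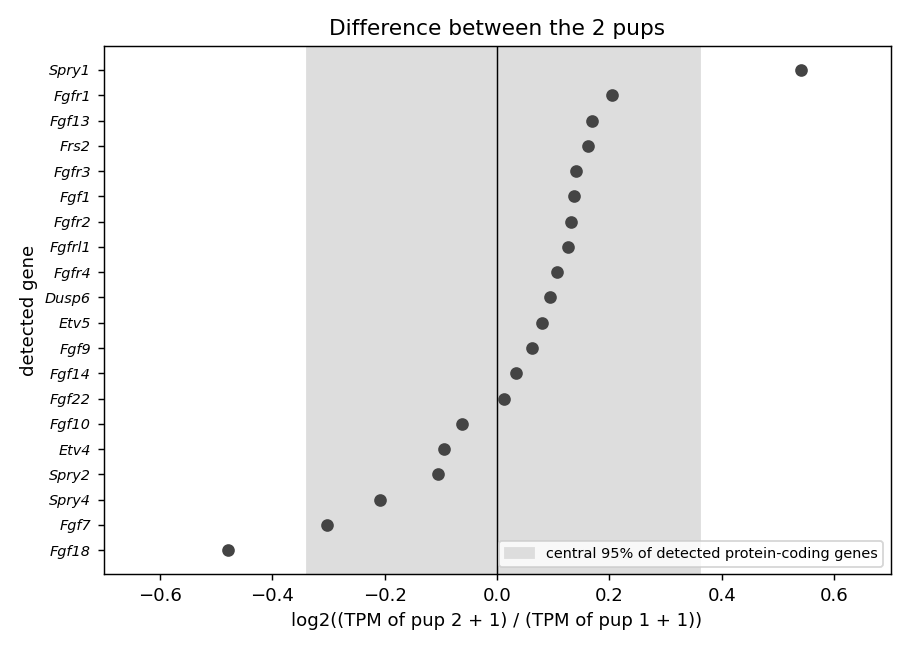
Log2 ratio of pup 2 over pup 1 for the 20 detected FGF genes, with 1 added to each TPM. The grey band is the central 95% of the 13138 detected protein-coding genes (-0.34 to 0.36). Spry1 (0.54) lies above it and Fgf18 (-0.48) below it.

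Of the 15 detected genes with more than 1 transcript, 14 had 1 main transcript shared by the pups. The exception was Spry1, whose main transcript was Spry1-203 in pup 2 (50.4% of the gene) and Spry1-201 in pup 1 (46.8%), and the intervals of these transcripts overlapped in each pup. Some FGF genes lie side by side on mm10: Fgf3, Fgf4 and Fgf15 on chromosome 7, with gaps of 2.93 kb and 31.3 kb, and Fgf6 and Fgf23 on chromosome 6, 44.7 kb apart. All 5 were under the detection limit. Fgf2 and Spry1 lie 230 kb apart on chromosome 3, with Fgf2 near the floor (11 counts in each pup) and Spry1 among the higher FGF genes. Spry4 and Fgf1 lie 237 kb apart on chromosome 18, and both were detected.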

How the data were processed

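Gene and transcript tables of 2 libraries were used, 1 per pup. Per the labels' protocols, a mirVana kit gave the RNA, 10 ng above 200 nucleotides entered the library with spike-ins, and a SMARTer Ultra Low manual is linked. The build is mm10 with GENCODE M4, per the text deposited with the samples. No aligner, quantification program or strandedness is given in the sources used. Expected counts, deposited by the authors, estimate the reads of each gene or transcript. Deposited TPM values are scaled for length and total and come with posterior means and 95% interval bounds. The deposited isoform share gives each transcript as a percent of its gene's TPM.

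Symbols and positions came from GENCODE M21, matched on IDs without version, as did exon content and exon sequences (141 of 142 member transcripts matched, 121 of them with the same length). Overlaps between genes were counted over all M21 exons of each gene, part of which can lie outside the deposited models. Ratios between pups were taken as log2 after 1 was added to each TPM, pup 2 over pup 1, which understates differences of low genes. Read ratios carry exact binomial intervals for counting error only. Scaling alternatives used edgeR 4.0.16 (TMM) and DESeq2 1.42.0 size factors on rounded expected counts, and exons were aligned with Biopython 1.88. The labels describe separate stomachs of littermates, so the spread is between 2 siblings. Every member is accounted for. Of the other lists described, except those given by count alone, the 3 genes with the highest mean TPM and any gene past the difference rule are named. Other genes named from the lists were chosen after their values were seen. The members and lists were chosen with earlier results of these data known. Some sequences are not reported here.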

Additional observations from a re-analysis of the deposited data

How the results depend on the processing

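No paired analysis was possible because the labels give 1 group, with no test between groups. The 20 detected genes became 11 at a limit of 5 TPM in both pups, 23 at 0.5 TPM and 29 at 0.1 TPM or at an expected count of 10, and 20 to 21 when 1 pup was used alone. At 1.5-fold 1 gene differed between pups in place of 0. The median log2 ratio, 0.09 with TPM, stayed above 0 and was 0.043 with TMM-scaled CPM, 0.048 with DESeq2-scaled counts and 0.024 with no filter on low levels. The share of Fgfr2 TPM in IIIb transcripts, 21.1% as the mean of the pups, was 21.0% with posterior means, 20.8% by expected counts and 26.6% among protein-coding transcripts, and 21.0% to 21.2% with 1 pup alone. The IIIc share, 19.4%, was 28.6% by expected counts and 24.5% among protein-coding transcripts, and 18.6% to 20.3% with 1 pup alone. The IIIb part of both was 42.1% by expected counts, and 50.9% to 53.2% with 1 pup alone. The cause of these shifts was not tested, except that expected counts are not scaled for length. The level of Fgfr2 was 34.9 TPM without Fgfr2-217, and the Fgf7 subfamily summed to 5.92 TPM without Fgf22, against 15.9 TPM with it, both alternatives chosen after seeing the data. With posterior means, 14 of 20 levels stayed within 1 SD of the pups, and 6 moved, 5 of them up, by at most 43.6% (Etv4). At this depth 6 ligands were at or below 3 counts in both pups.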
